A study of Nothobranchius furzeri with 10 samples.

Results

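Brain libraries JG74 to JG78 were compared with brain libraries JG80 to JG84 of the turquoise killifish Nothobranchius furzeri, an annual fish with a very short life used to study ageing. The sets hold 5 libraries each and together make up all 10 libraries of the series. They were formed by the number in the sample title, and the titles skip 1 number between them. This division had drawn attention in earlier results of the same counts, so no p-value below is independent evidence that the sets differ. Every library, in both sets, was labelled as total RNA from the brain of a male of the GRZ strain, 10 weeks old, with the perturbation swim-tunnel, in which fish swim against a current. The labels thus give no difference in strain, sex, age, tissue or treatment between the sets, no batch and no unexercised fish. The comparison is one of unlabelled sets, and whatever separates them is not given in the sources used here. Nothing states that the libraries came from separate fish, so p-values measure the spread between these libraries, which may be technical.

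The vertebrate brain mixes neurons, glia and vessel cells, and bulk RNA averages over all of them. Its transcripts are known to change with recent activity, feeding, stress and the daily cycle, and the measured profile is also known to change with RNA quality and library preparation. None of these was recorded per library. In such bulk samples fewer cells of a type and less RNA per cell cannot be told apart. The 26739 gene identifiers are not paired with names in the files, and 0 of them matched the species' RefSeq gene table. Roles of genes, pathways and the markers that would check the brain label were therefore not analysed here, and genes are grouped below by abundance, length and size of difference.

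Depth overlapped between the sets. Totals were 22958779 to 28002134 counts in JG74 to JG78 and 23751478 to 28223263 counts in JG80 to JG84. In these totals 3 counts stood for 0.106 to 0.131 CPM (counts per 1000000 of the library total), a floor for counting error only. The 17951 genes whose CPM by library total averaged 1 or more were compared. The chi-square per degree of freedom between libraries, over 16633 genes averaging 50 counts or more, had a median of 24.7 in the 10 pairs within JG74 to JG78, 28.4 in the 10 pairs within JG80 to JG84 and 37.9 in the 25 pairs that join the sets. The lowest pair stood at 9.58, so no library was treated as deposited more than once.

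Expression of 4378 brain genes differed between the sets, 24.4% of the 17951 tested. Of these, 1960 genes (10.9% of those tested) were higher in JG74 to JG78 and 2418 (13.5%) were lower. Most of the differences were small. Among the called genes the median log2 fold change, JG74 to JG78 over JG80 to JG84, was 0.36 for the higher ones and -0.32 for the lower ones. A total of 2122 called genes differed by less than 1.25-fold, 15.6% of the 13626 genes tested in that class. Another 1646 differed by 1.25- to 1.5-fold (54.7% of 3008) and 502 by 1.5- to 2-fold (50.6% of 992). Larger differences were seen in 101 genes at 2- to 4-fold (33.0% of 306) and 7 at 4-fold or more (36.8% of 19). Called genes were those with an adjusted p under 0.05 in edgeR's quasi-likelihood test, a negative binomial model of the counts, after scaling by TMM (trimmed mean of M-values, which sets libraries to a common level through the bulk of their genes) and Benjamini-Hochberg adjustment over all genes tested. With library totals in place of TMM the split moved to 1367 higher and 3288 lower, that is 29.4% higher against 44.8%. The count was 2824 without JG76 and 2756 without JG83. It became 307 with each library's slope on gene length as a covariate, described below. It was 7182 with the first 2 principal components of the residuals as covariates. Those components were taken after each set's mean had been removed, so they took up spread within the sets and not the difference between them.

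**Figure D1:**
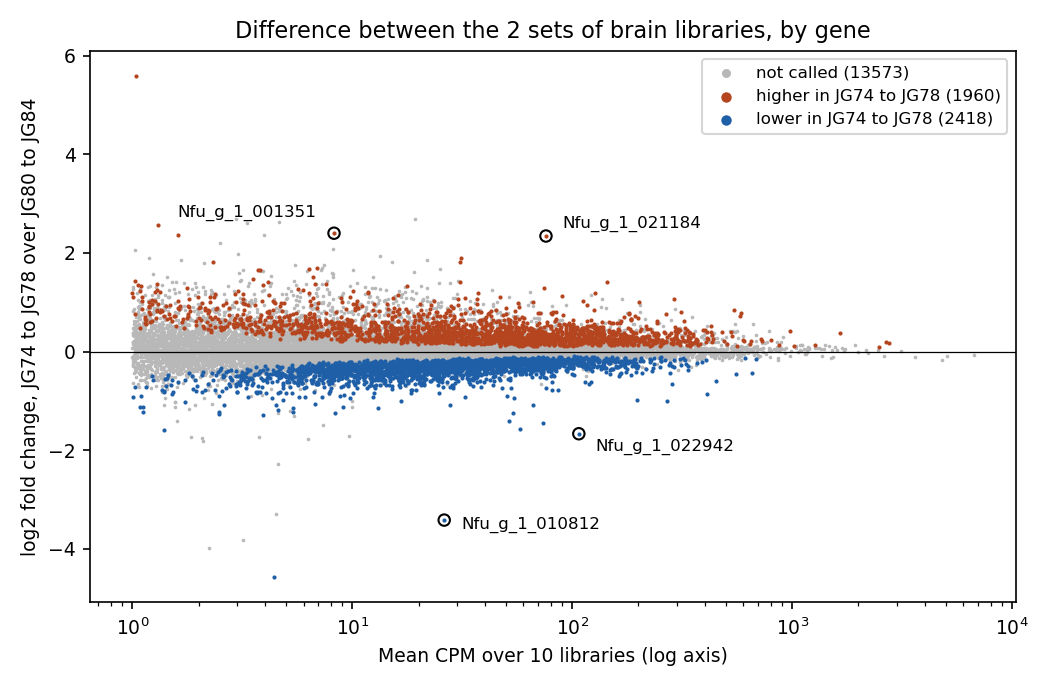
Log2 fold change (JG74 to JG78 over JG80 to JG84) of each of 17951 genes against its mean CPM on a log axis. Red points are the 1960 genes called higher, blue points the 2418 called lower, grey points the rest, and rings mark the 4 genes described by identifier. Most called genes lie close to 0, and with library totals 29.4% of the called genes are higher.

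With calls limited to those kept on leaving out any library, and to a mean of 5 CPM or more, Nfu_g_1_010812 had the most negative log2 fold change. It had 5.21, 4.52, 4.43, 4.34 and 3.62 CPM in JG74, JG75, JG76, JG77 and JG78, against 31.5, 34.7, 51.9, 60.0 and 57.9 CPM in JG80, JG81, JG82, JG83 and JG84. The lowest library of JG80 to JG84 thus lay far above the highest of JG74 to JG78, and the libraries of JG74 to JG78 varied little. The mean was 4.42 ± 0.565 CPM in JG74 to JG78 and 47.2 ± 13.3 CPM in JG80 to JG84 (SD, n = 5 each), 10.7-fold lower, with a log2 fold change of -3.42 ± 0.21 (SE; edgeR, adjusted p = 3.2e-05).

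Next among the lower genes was Nfu_g_1_022942, which varied more within each set. Its levels were 67.7, 79.9, 44.3, 28.5 and 34.2 CPM in JG74 to JG78, in order of title number, against 119, 115, 196, 223 and 155 CPM in JG80 to JG84. The sets did not overlap, with JG75 the nearest of its set and JG81 the nearest of the other. The mean was 50.9 ± 22.1 CPM in JG74 to JG78 and 162 ± 47.4 CPM in JG80 to JG84 (SD, n = 5 each). The log2 fold change was -1.67 ± 0.31 (SE; edgeR, adjusted p = 0.00441). With the length slope as a covariate it was -1.24 and was no longer called (edgeR, adjusted p = 0.165).

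On the higher side, Nfu_g_1_001351 led. Its levels were 15.7, 12.6, 16.1, 13.3 and 12.6 CPM in JG74 to JG78, against 3.62, 2.84, 2.42, 1.74 and 2.66 CPM in JG80 to JG84. The counts behind them were 297 to 411 in JG74 to JG78 and 42 to 104 in JG80 to JG84, so even the lowest library was well above the floor. All 5 libraries of JG74 to JG78 were high and the sets did not overlap. The mean was 14.1 ± 1.71 CPM in JG74 to JG78 and 2.66 ± 0.681 CPM in JG80 to JG84 (SD, n = 5 each), with a log2 fold change of 2.40 ± 0.17 (SE; edgeR, adjusted p = 7.19e-05).

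The gene Nfu_g_1_021184 was also higher. It had 160, 138, 105, 124 and 115 CPM in JG74 to JG78, against 30.1, 24.3, 24.6, 24.2 and 23.3 CPM in JG80 to JG84. Within JG80 to JG84 the libraries were nearly level apart from JG80, and the sets were far apart. The mean was 128 ± 21.4 CPM in JG74 to JG78 and 25.3 ± 2.75 CPM in JG80 to JG84 (SD, n = 5 each). The log2 fold change was 2.34 ± 0.12 (SE; edgeR, adjusted p = 1.42e-05). Gene lengths recovered from the deposited tables were 2785 bp for Nfu_g_1_010812, 585 bp for Nfu_g_1_022942, 714 bp for Nfu_g_1_001351 and 5443 bp for Nfu_g_1_021184, so these genes included long and short ones.

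**Figure D2:**
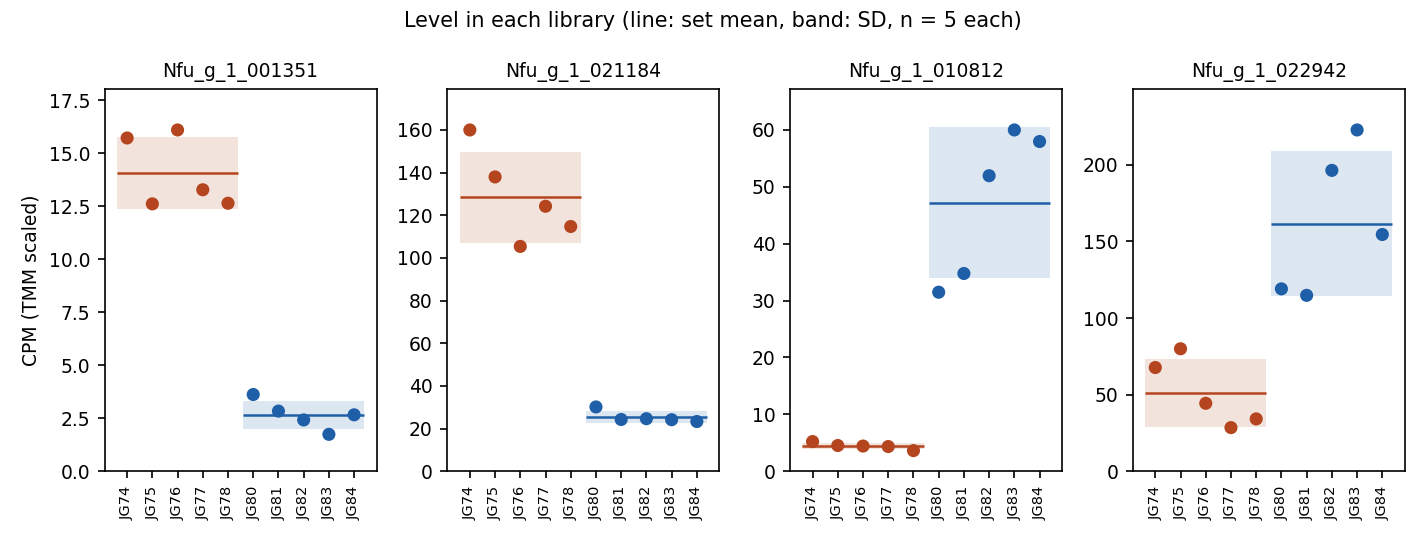
CPM (TMM scaled) of 4 genes in each of the 10 libraries, with JG74 to JG78 in red and JG80 to JG84 in blue. Lines are set means and bands the SD (n = 5 each). In all 4 genes every library of one set lies above every library of the other, which the way they were chosen favours.

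These 4 genes were taken from the 2499 genes (57.1% of those called) that passed again, in the same direction, whichever library was left out of the fit. That choice favours sets without overlap. The limit of 5 CPM was on the mean over all 10 libraries. Nfu_g_1_010812 and Nfu_g_1_001351 lay below it in their lower set, at means of 4.42 and 2.66 CPM. Of the 2499, 1065 were higher in JG74 to JG78 and 1434 lower. Of the 325 genes tested that differed by at least 2-fold, 273 had the higher level in JG74 to JG78 and 52 the lower, and 108 (33.2%) were called. Of the 108, 80 were higher in JG74 to JG78 and 28 lower, a split that was not tested. Many of them were scarce, with 55 of the 80 and 17 of the 28 under 10 CPM, beside 5866 of all 17951 genes tested. Among the 80 higher genes 49 had sets that did not overlap, and among the 28 lower genes 24 had, where the calls themselves favour such genes and the share over all genes tested was 17.8%.

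Counted without a model, the sets did not overlap in 3203 genes, 17.8% of the 17951 tested, with 1294 genes higher in every library of JG74 to JG78 and 1909 lower. With library totals in place of TMM the split was 901 higher and 2542 lower. The gaps were narrow. The nearest libraries of the sets were a median of 1.06-fold apart, 1055 genes had a gap of over 1.1-fold, 229 of over 1.25-fold, 38 of over 1.5-fold and 7 of over 2-fold. Of the 3203 genes, 3037 were also called by edgeR. The count of 3203 was tested as 1 value in an exact permutation test over the 10 libraries, which can be divided into 5 and 5 in 126 ways. No other division reached it: the next had 1105 genes, and the median of the others was 76 (exact permutation p = 0.00794, one-sided, the smallest this design can give). The division by title number had drawn attention in earlier results of the same counts, so this p describes how these libraries fall and is not independent evidence. Leaving out 1 library at a time gave 3326 to 4252 such genes, again above every other division of the 9 libraries (exact permutation p = 0.00794, the smallest possible). The margin was narrower than with all 10 libraries. The next division had 1771 genes against 3396 without JG76, and 2691 against 3822 without JG80. A gene without overlap in 10 libraries keeps that in any 9 of them. The counts of 3326 to 4252 could therefore not fall below 3203, and their size says nothing of stability.

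The part of the total variance between the sets was less clear. It was 20.4% of the sum of squares of log2 CPM, against a median of 11.1% over all divisions, and 6 of the 126 divisions reached it, the sets themselves included (exact permutation p = 0.0476, one-sided). With each gene scaled to unit variance, which gives every gene the same total variance, the share was 32.4% and no other division reached it (exact permutation p = 0.00794). The p for the unscaled share exceeded 0.05 in 9 of the 10 versions without 1 library and in several other settings, given in the closing section. Without that scaling the sets overlapped on all 9 principal components. The third component, with 8.48% of the variance, had the largest part between the sets, 40.3% (exact permutation p = 0.0476, 2-sided, adjusted p = 0.393 over 9 components). The second component, with 30.8% of the variance, had 32.5% between the sets (exact permutation p = 0.0873, adjusted p = 0.393). Which component held the largest part depended on the filter. At a mean of 5 CPM or more it was the first, with 38.1% of the variance and 54.1% between the sets. The sets still overlapped on it (exact permutation p = 0.03175, adjusted p = 0.286). With each gene scaled to unit variance the first component, with 36.6% of the variance, separated the sets without overlap. It had 83.06% between them (exact permutation p = 0.00794, the smallest this design can give, adjusted p = 0.0714 over 9 components). Over 9 components, 0.0714 is the smallest adjusted p that 1 component alone can reach. None could pass 0.05 by itself, so these adjusted p do not show that the sets are alike on a component.

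Each library was also placed by genes that it had no part in calling. Genes were called from the other 9 libraries, and the level of the left-out one was read between the set means of those 9. On this scale 0 is the mean of JG80 to JG84 and 1 the mean of JG74 to JG78. The medians were 1.06 for JG74, 0.668 for JG75, 1.02 for JG76, 1.05 for JG77 and 0.803 for JG78. They were 0.263 for JG80, 0.0241 for JG81, 0.220 for JG82, -0.180 for JG83 and 0.102 for JG84. All 10 libraries lay on the side of their own set, and JG75 was the closest to the middle. The share of those genes nearer to the library's own set ran from 66.6% in JG75 to 94.4% in JG76 within JG74 to JG78, and from 72.5% in JG80 to 97.0% in JG83 within JG80 to JG84. The genes used numbered 2756 to 4525. This measure was added after the data had been seen, and both the scaling and the filter of 1 CPM used all 10 libraries. The sets themselves were chosen with earlier results of these libraries known. No other division was placed in this way, so the positions are not independent evidence for the sets.

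**Figure D3:**
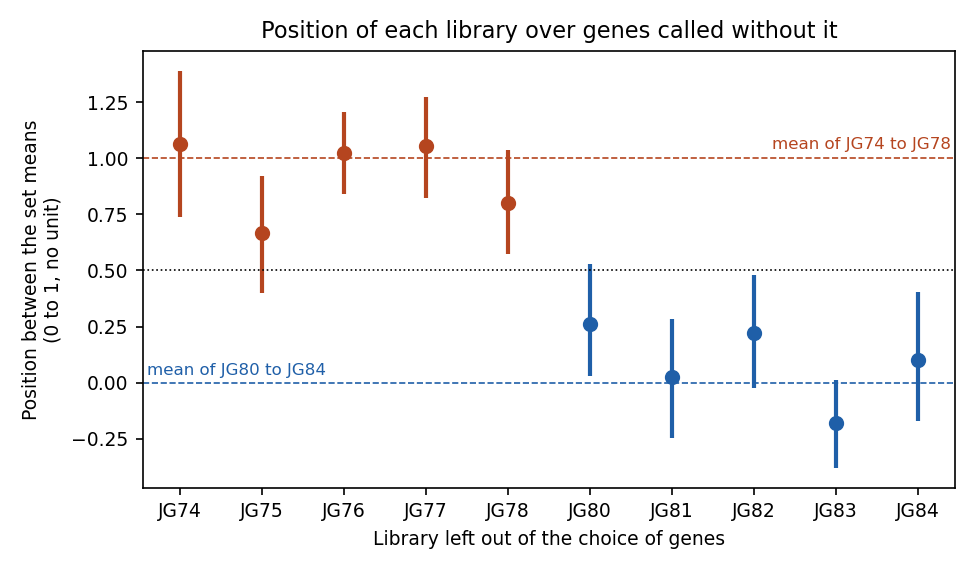
Position of each library between the set means (1 is the mean of JG74 to JG78, 0 that of JG80 to JG84, no unit) over genes called without it. Points are medians over genes and bars run from the lower to the upper quartile. The medians of JG74 to JG78 lie between 0.668 and 1.06, and those of JG80 to JG84 between -0.180 and 0.263.

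The direction of the called genes differed by gene length. Among the longest tertile of the genes tested (over 3966 bp) 1014 called genes were higher in JG74 to JG78 and 633 lower, that is 61.6% higher, a majority that became 44.8% with library totals in place of TMM. Of the called genes of the shortest tertile (under 1814 bp), 427 were higher and 837 lower, or 33.8% higher, which became 20.2% with library totals. The middle tertile had 519 higher and 948 lower. The called genes had a median length of 4168 bp where higher in JG74 to JG78 and of 2562 bp where lower, beside 2772 bp for all genes tested. The longest tertile held a larger share of higher calls than the shortest under TMM, DESeq2 size factors and library totals, and also after the length trend of each library was removed (51.4% against 45.8%). After that removal the middle tertile had the smallest share of higher calls, 34.4%, so the share did not rise steadily with length.

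By abundance, the genes of at least 100 CPM stood at 454 called higher in JG74 to JG78 and 212 lower (68.2% higher; 47.3% with library totals). Those of 10 to 100 CPM had 1107 higher and 1705 lower (39.4% higher; 24.4% with library totals), and those of 1 to 10 CPM 399 higher and 501 lower (44.3% higher; 32.8% with library totals). Calls were made for 27.6% of 2413 genes, 29.1% of 9672 genes and 15.3% of 5866 genes in these classes. Scarce genes needed larger differences to be called: the median size of the log2 fold change among called genes was 0.26 at 100 CPM or more, 0.30 from 10 to 100 CPM and 0.51 below. Length and abundance overlapped. Among genes of at least 100 CPM, the longest tertile had 366 called higher and 94 lower, out of 1438 tested (32.0% called). The middle tertile had 68 called higher and 84 lower, out of 613 tested (24.8% called). The shortest tertile had 20 called higher and 34 lower, out of 362 tested (14.9% called). Of the called genes in this class, 79.6% of the longest tertile were higher, against 37.0% of the shortest. The contrast was smaller from 10 to 100 CPM (54.3% against 30.4%) and from 1 to 10 CPM (56.6% against 38.8%).

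**Figure D4:**
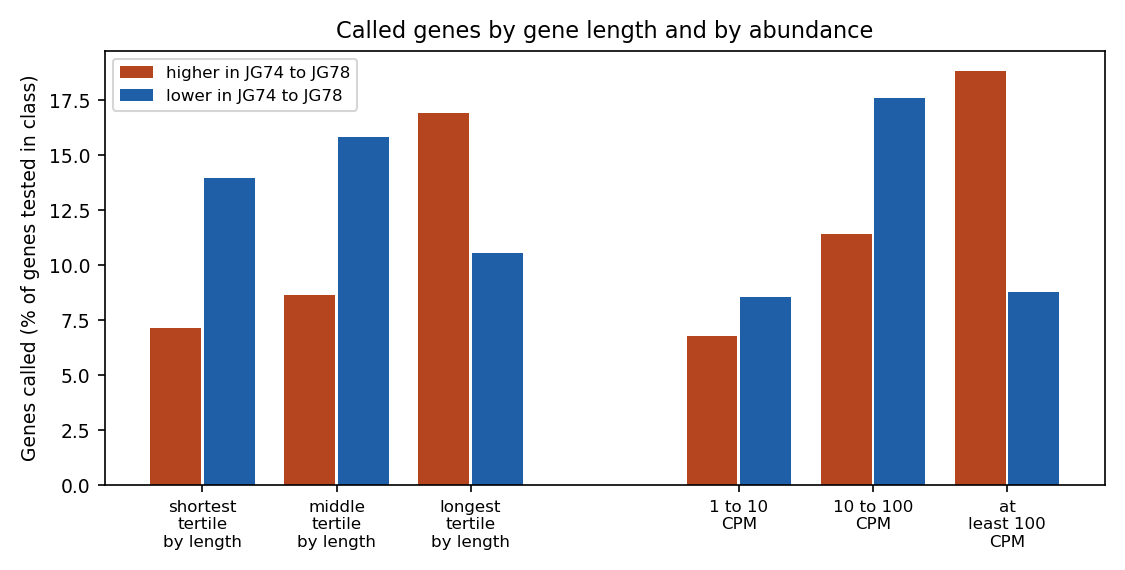
Percent of the genes tested in each class that were called higher (red) or lower (blue) in JG74 to JG78, by tertiles of gene length and by mean CPM. Under TMM scaling 16.9% of the longest tertile were called higher and 10.6% lower, against 7.14% and 14.0% of the shortest. With library totals 44.8% of the called genes of the longest tertile were higher.

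Of 5 measures of the libraries themselves, none passed an adjusted p of 0.05. The slope of a library on gene length is the change in its log2 CPM, relative to the mean of all libraries, per doubling of length. It was 0.0137, 0.00197, 0.0171, 0.0250 and 0.00581 in JG74 to JG78, against 0.00302, -0.0250, -0.00128, -0.0262 and -0.0141 in JG80 to JG84. JG75 lay just below JG80, so the sets overlapped slightly. The means were 0.0127 ± 0.00913 in JG74 to JG78 and -0.0127 ± 0.0134 in JG80 to JG84 (SD, n = 5 each; exact permutation p = 0.0159, 2-sided, adjusted p = 0.0794 over 5 measures), and 60.7% of the variance of the slope lay between the sets. A fit with the slope as a covariate therefore compared the sets mainly on what the slope left over, and called 307 genes, 153 higher and 154 lower in JG74 to JG78, 273 of them among the 4378. When instead the length trend itself was taken out of each library, 4288 genes were called, 3983 of them among the 4378. The sets then did not overlap in 3178 genes. With slopes taken over genes averaging 5 CPM or more, JG75 (-0.00207) lay below both JG80 (0.00453) and JG82 (0.00226). The difference in slope then had an exact permutation p of 0.0317 (2-sided, adjusted p = 0.159).

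The TMM factors separated the sets completely. They were 0.980, 0.999, 0.978, 0.971 and 0.987 in JG74 to JG78, against 1.019, 1.012, 1.017, 1.017 and 1.021 in JG80 to JG84 (exact permutation p = 0.00794, 2-sided, the smallest this design can give), a measure added after it had been seen. The 10 most abundant genes took 3.53 ± 0.0775% of the counts in JG74 to JG78 and 3.73 ± 0.197% in JG80 to JG84 (SD, n = 5 each; exact permutation p = 0.0635, adjusted p = 0.159). Genes detected numbered 21783 ± 95.1 in JG74 to JG78 and 21696 ± 93.3 in JG80 to JG84 (exact permutation p = 0.167, adjusted p = 0.238). Total counts and the share of counts in genes under 1 CPM had adjusted p of 0.532 and 0.238 (exact permutation). The part of the length slope and the TMM factor in the differences between the sets was tested only as far as the fits above.

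**Figure D5:**
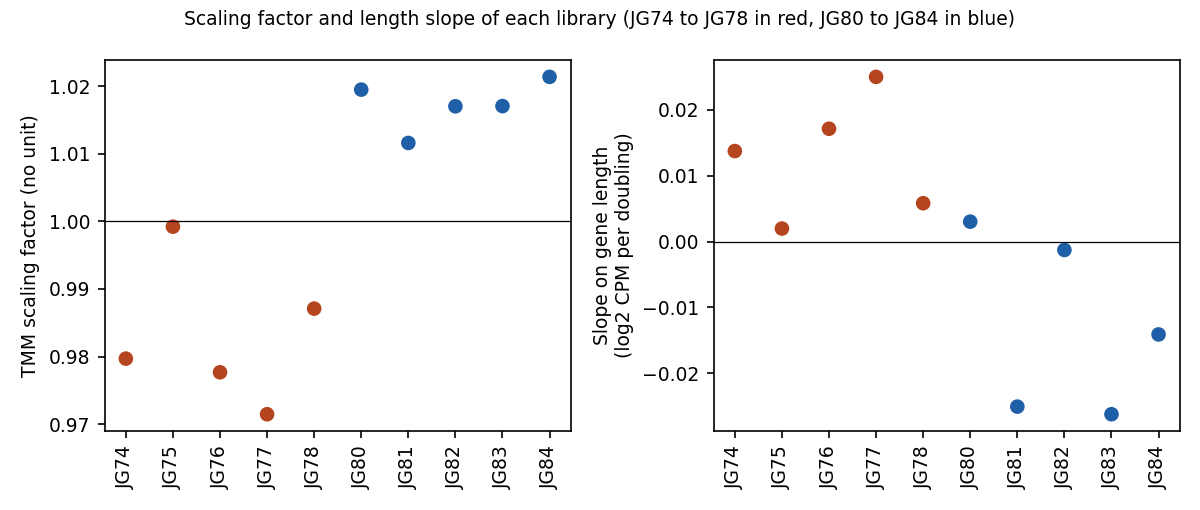
TMM scaling factor (no unit, left) and slope on gene length (log2 CPM per doubling of length, right) of each library, with JG74 to JG78 in red and JG80 to JG84 in blue. The factors lie between 0.971 and 0.999 in JG74 to JG78 and between 1.012 and 1.021 in JG80 to JG84. The slopes overlap only through JG75 and JG80.

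Neither set was seen to be more uniform than the other. The SD of log2 CPM within a set had a median over genes of 0.134 in JG74 to JG78 and 0.139 in JG80 to JG84 (exact permutation p = 0.817, 2-sided). The median size of the log2 fold change over all genes tested was 0.17. The genes called higher took 16.3% to 17.1% of the counts in JG74 to JG78 and 13.3% to 14.6% in JG80 to JG84, and those called lower took 8.45% to 9.51% in JG74 to JG78 and 11.0% to 11.7% in JG80 to JG84. Their choice for this difference fixes the direction of these shares.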

How the data were processed

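Per the labels' protocols, libraries were made with Illumina's TruSeq RNA kit (version 2). Among tools, the processing notes of the submitters list featureCounts 1.4.6-p4, STAR 2.4.1d and bcl2fastq 1.8.4. Genome build, annotation and strand setting: not given in the sources used here. Near-identical or overlapping genes are therefore uncertain. The authors deposited raw counts per gene, which were used for all tests. They also deposited RPKM values, which did not follow from their own column's total: the implied gene length varied between libraries by a median of 11.0%, but by 0.00158% when the 10 totals were recycled down the columns. RPKM served only to recover gene lengths. No column was left without a sample.

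Sets, lists and tests were chosen with earlier results of these data known. Genes averaging 1 CPM or more were tested in R 4.3.3 with edgeR 4.0.16, TMM and a prior count of 2 for log2 CPM. DESeq2 1.42.0 and limma 3.58.1 were alternatives. SEs of log2 fold changes were taken from the quasi-likelihood F statistic. Exact permutation tests used the 252 arrangements of the 10 libraries, in Python 3.11.15 with scipy 1.17.1. The steps were tested on simulated data. By the rule for identifiers without names, the 2 genes highest and the 2 lowest by fold change were named, among genes of at least 5 CPM called in all libraries and without each library in turn. Lists of named genes could not be evaluated.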

Additional observations from a re-analysis of the deposited data

Results flagged for a closer look

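In 40 sets of 5 values (library measures, component scores, the 4 genes described by identifier and library positions, by set), 2 held a library far from the other 4, where chance gives about 5%. On the fifth principal component JG74 scored -15.4, while the other libraries of JG74 to JG78 scored 5.15 to 8.73, so that its gap was 0.852 of the range. In Nfu_g_1_021184 JG80 stood at a log2 CPM of 4.92, against 4.55 to 4.63 in the other libraries of JG80 to JG84, a gap of 0.784 of the range, and it lay below every library of JG74 to JG78.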

How the results depend on the processing

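The removal of the length trend was added after the data had been seen. The 4378 called genes became 307 with the length slope as a covariate, which shares 60.7% of its variance with the sets. They became 7182 with 2 residual components as covariates. By construction these components take up spread within the sets and leave the difference between them, so that count is no independent measure of stability. Without each library in turn the called genes numbered 2756 to 4525, with fewer samples by construction, and under the other settings 2992 to 5034. The number of genes tested changed with the filter, so these counts are not alike. With no abundance filter 3989 of 22871 genes (17.4%) were called. At a mean of 5 CPM or more 4256 of 14406 (29.5%) were called, against 24.4% in the main fit. DESeq2 called 5034 genes, 4325 of them among the 4378, and limma-voom 4465. The count of genes whose sets do not overlap lay within 1.5 times of 3203 in all 16 alternatives run. Those that leave out libraries could not fall below 3203 by construction, so they do not test whether the count holds. The filters changed the genes compared: 3395 of 22871 genes did not overlap with no abundance filter. At a mean of 5 CPM or more 2937 of 14406 did not, beside 3203 of 17951 in the main setting. The share of variance between the sets kept its size but not its p under library totals (20.1%, p = 0.0556, exact permutation), no abundance filter (17.7%, p = 0.0794), a prior count of 0.5 (19.6%, p = 0.0714) and removal of the length trend (20.2%, p = 0.0556), and the cause was not tested. Without JG74 and JG81 the share was 25.2% (exact permutation p = 0.114), where only 35 divisions exist and the test is coarser. Without each library in turn the share ran from 17.8% to 25.9%, with p up to 0.230. The difference in within-set SD, JG74 to JG78 minus JG80 to JG84, was -0.00542 on the log2 scale and ran from -0.0234 to 0.0078 when 1 library was left out. It was positive without JG81 (0.0038) and without JG84 (0.0078). The 4 described genes were chosen for keeping their call without each library in turn, so those fits say nothing of their stability. Under the other settings Nfu_g_1_022942 lost its call in 1, with the length slope as a covariate, and the other genes kept theirs. The labels give no pairing of libraries between the sets, so no paired analysis was made.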
